A study of Mus musculus with 2 samples.

Results

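Fibroblast growth factor (FGF) signalling was followed through 10 genes in mouse embryonic stem (ES) cells labelled as knockout of the Polycomb gene Eed and in their control. The genes are the ligands Fgf4, Fgf8, Fgf15 and Fgf17, the receptors Fgfr1, Fgfr2, Fgfr3 and Fgfr4, and the feedback inhibitors Spry2 and Dusp6. They were chosen by function, as every probe set on the array whose single gene symbol is one of these names. Each probe set combines several short DNA probes for a transcript into 1 signal. The rule gave 24 of the 34945 probe sets with 1 symbol, and 10 of the 18193 genes.

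The study measured transcripts in 2 groups of ES cells, with 1 Affymetrix MOE430 2.0 array in each. One carries RNA of cells labelled as Eed knockout (Eed KO), called constitutive in the series' design text, and the other RNA of cells labelled as their control. Eed is a subunit of Polycomb repressive complex PRC2. The parent line, strain, allele, culture medium and use of feeder cells are not given in the sources used here. Neither group was replicated. The values below therefore carry no SD or p-value, and each compares these 2 arrays only.

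FGF ligands are secreted proteins that bind receptor tyrosine kinases together with heparan sulfate, and the activated receptor drives the RAS-ERK kinase cascade. ES cells make Fgf4 themselves, and its signal through ERK prepares them to leave the pluripotent state. In the blastocyst the same ligand directs inner cell mass cells towards primitive endoderm. ERK activity induces its own inhibitors, among them Sprouty proteins and dual-specificity phosphatases, so their transcripts are commonly read as a record of ERK output.

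The 3 measured ligands and both feedback genes read lower in the Eed KO array, and 3 of the 4 receptors read higher. Fgf17 was 4.40-fold lower and Dusp6 2.20-fold lower, while Spry2, Fgf15 and Fgf4 were lower by 1.63-, 1.35- and 1.31-fold. Fgfr4, Fgfr3 and Fgfr1 were 1.55-, 1.44- and 1.36-fold higher, and Fgfr2 had a ratio of 1.02 in the other direction. Fgf8 was under the floor of measurement on both arrays.

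A floor of 61.3, the 40th percentile of all signals on both arrays, was used as the limit of measurement. Signals below it were raised to it when ratios were formed. The brightest probe set of a gene, by mean log2 signal, stood for the gene, which counted as measured when that probe set exceeded the floor on at least 1 array. Of the 9 measured FGF genes, 2 were at least 2-fold lower and 0 at least 2-fold higher. Among all 13794 measured genes, 3.27% were at least 2-fold lower and 10.8% at least 2-fold higher. The median log2 ratio of Eed KO over control was -0.38 over the 9 genes and 0.12 over all measured genes. At 1.5-fold the FGF genes gave 3 lower and 1 higher, against 10.2% and 23.3% of all measured genes. A ratio below 1 was found for 6 of the 9, against 41.1% of all, and a ratio above 1 for 3, against 58.9%.

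**Figure D1:**
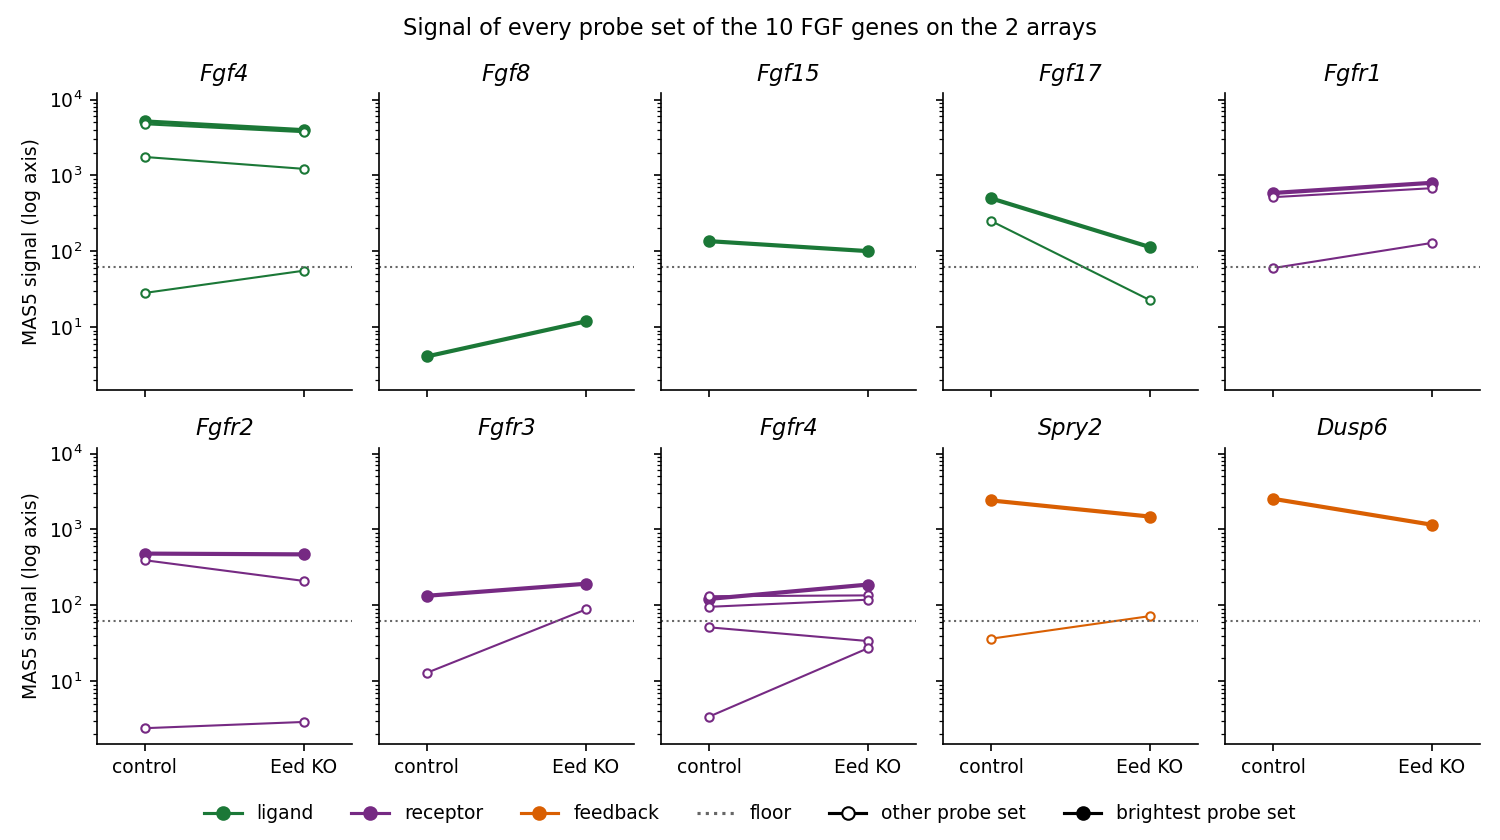
Signal of each of the 24 probe sets (log axis, MAS5 units) on the control and the Eed KO array, 1 panel per gene. Filled points are the brightest probe set by mean log2 signal and open points the others. The dotted line is the floor of 61.3. The lines of Fgf17 and Dusp6 drop the most among the filled points, from 498.5 to 113.2 and from 2537 to 1154.

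Some facts of the whole arrays bear on these values. The control array had a median signal of 87.4 over its 45101 probe sets and the Eed KO array one of 108.1, although their trimmed means had been set equal. The share of the 2-fold calls that were higher was 76.7% as deposited, 64.5% with quantile normalization, 66.2% with the lowess trend removed, 57.6% on the poly-A spike scale and 45.8% when medians were set equal. That median scaling moved the median log2 ratio of all genes from 0.12 to -0.16, and the poly-A scaling moved it to -0.06. The 10 ES cell markers, Pou5f1, Sox2 and Nanog among them, all lay well above the floor, from 3408 to 42021 in control cells and from 4666 to 45754 in Eed KO cells. Of these 10, 1 was at least 2-fold higher, Klf4 (3639 and 9409, 2.59-fold), and 0 lower, while Nanog and Zfp42 were 1.80- and 1.72-fold higher. In all, 6 of the 10 had a ratio above 1 and 4 below it, Utf1 (1.63-fold lower) and Sox2 (1.39-fold lower) among the latter. For this and the next lists, the shares of all measured genes past 2-fold were 10.8% higher and 3.27% lower. Fibroblast markers were also present on both arrays: 14 of 19 were higher by at least 2-fold, the median log2 ratio was 1.49, and the signals summed to 21012 for control and 42079 for Eed KO cells. Among 15 markers of primitive endoderm, 7 were higher and 1 lower by that size, with summed signals of 9695 and 14145. The neural list had 9 measured genes, none of them past 2-fold upwards and 2 past it downwards, Neurod1 (813.5 and 104.5, 7.78-fold) and Sox11 (806.1 and 132.0, 6.11-fold), and its signals summed to 2708 and 1656. The part of these marker lists in the differences of the FGF genes was not tested. Eed itself read 10101 and 11456. As the sources used here do not place the disruption within the gene, that signal does not check the label.

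Fgf17, a ligand of the Fgf8 subfamily that acts in midbrain and hindbrain development, had the largest difference of the 10. Its brighter probe set (1421523_at) read 498.5 in control cells and 113.2 in the Eed KO, a log2 ratio of -2.14. Its other probe set (1456239_at) read 250.9 in control cells and 22.6, under the floor, in the Eed KO, so that it was at least 4.09-fold lower. As this dimmer probe set passed the floor in the control only, its direction was fixed, and the brighter one is the reading that both arrays measured. Of all measured genes, 0.268% had a log2 ratio as low as that of Fgf17. The spread expected from probe choice alone was small beside it: the log2 ratios of different probe sets of a gene varied with an SD of 0.42 at signals between 128 and 256, and 0.54 at lower signals. That SD covers probe and isoform spread within these 2 arrays. It leaves out the spread between RNA preparations, arrays and cultures, as an error shared by all probe sets of an array cancels in it. The neural markers Neurod1 and Sox11 were lower in the same array, and their part in the Fgf17 difference was not tested.

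Fgf4, the main FGF of ES cells, stayed bright on both arrays. Its brightest probe set (1420085_at) read 5143 in control cells and 3941 in Eed KO cells. A further one read 4721 and 3710, and one from another transcript record read 1747 and 1218. All 3 were thus lower in the Eed KO, by log2 ratios of -0.38, -0.35 and -0.52, against a probe-set SD of 0.18 above a signal of 2048 and 0.23 between 512 and 2048. The first 2 of them were designed on the same sequence record, so they are not independent readings. The remaining Fgf4 probe set, on that record too, stayed under the floor at 28.2 and 55.4. A log2 ratio as low as -0.38 was found in 18.2% of all measured genes, which places Fgf4 inside the broad run of genes.

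Fgf15, the mouse counterpart of human FGF19, is best known as a gut hormone that restrains bile acid synthesis. It had 1 probe set, which read 135.7 in control cells and 100.3 in the Eed KO, a log2 ratio of -0.44. The probe-set SD is 0.54 at this low signal, so the difference is smaller than that spread. In the RefSeq annotation of GRCm38.p6, Fgf3, Fgf4 and Fgf15 are consecutive protein-coding genes on chromosome 7, with the cyclin gene Ccnd1 close by. Fgf3 was under the floor at 46.1 in control cells and read 120.1 in Eed KO cells (at least 1.96-fold higher, a direction fixed by the floor), and Ccnd1 read 4349 and 2703. The 2 other measured Ccnd1 probe sets had log2 ratios of -0.14 and -0.10.

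Fgf8, a ligand of gastrulation and of the midbrain-hindbrain boundary, read 4.1 and 11.9 with its single probe set. Both values lie below the highest signal of the control probe sets for Trpn, which match no mouse transcript, at 23.2. No ratio is given for Fgf8. Its relative Fgf17 was therefore the only measured ligand of the pair.

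The receptors differed less. Fgfr1, a principal FGF receptor of ES cells, read 585.4 in control cells and 797.8 in the Eed KO with its brightest probe set. A probe set shared with other transcripts read 515.6 and 677.6, and a dim one read 59.9, just under the floor, and 128.7. The first pair were higher in the Eed KO, with log2 ratios of 0.45 and 0.39. The dim one had a log2 ratio of at least 1.07, a direction that was fixed because it passed the floor in the Eed KO only. A ratio as high as 0.45 was found in 30.0% of all measured genes. When array medians were set equal the log2 ratio of Fgfr1 was 0.14.

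Fgfr2, a receptor that also serves trophoblast and primitive endoderm in the early embryo, gave different readings from different probe sets. The brightest, shared with other transcripts, read 480.7 and 469.5. The next (1420847_a_at) read 393.0 in control cells and 209.5 in the Eed KO, a log2 ratio of -0.91. The third was near zero on both arrays, at 2.4 and 2.9. The gene's ratio thus rests on which probe set is used, and its log2 value was -0.47 as the mean over the measured ones. These readings do not settle whether Fgfr2 differed.

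Fgfr3 and Fgfr4, receptors better known from cartilage and from liver, were dim. Fgfr3 read 133.6 in control cells and 192.4 in the Eed KO, a log2 ratio of 0.53, and its other probe set read 12.9 and 88.3. Since the latter was under the floor in the control, its direction was fixed once it was measured. Fgfr4 had 5 probe sets. Those above the floor read 121.4 and 187.7, 131.8 and 135.1, and 95.5 and 118.6 in control and Eed KO. The first of these, which stood for the gene, and the last are shared with other transcripts, and the log2 ratio of the gene was 0.04 without shared probe sets. The other two, at 51.3 and 33.8 and at 3.4 and 27.2, were under the floor on both arrays. The Fgfr4 log2 ratios ran from 0.04 to 0.63 between probe sets. The probe-set SD is 0.42 at the signals of both genes, close to the size of their log2 ratios.

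Probe sets of a gene share its transcript and are not replicates of the condition. Of the 24 probe sets, 15 were above the floor on both arrays, 3 in the Eed KO only, 1 in the control only, and 5 on neither, and for those above it on a single array the direction was fixed by the floor.

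**Figure D2:**
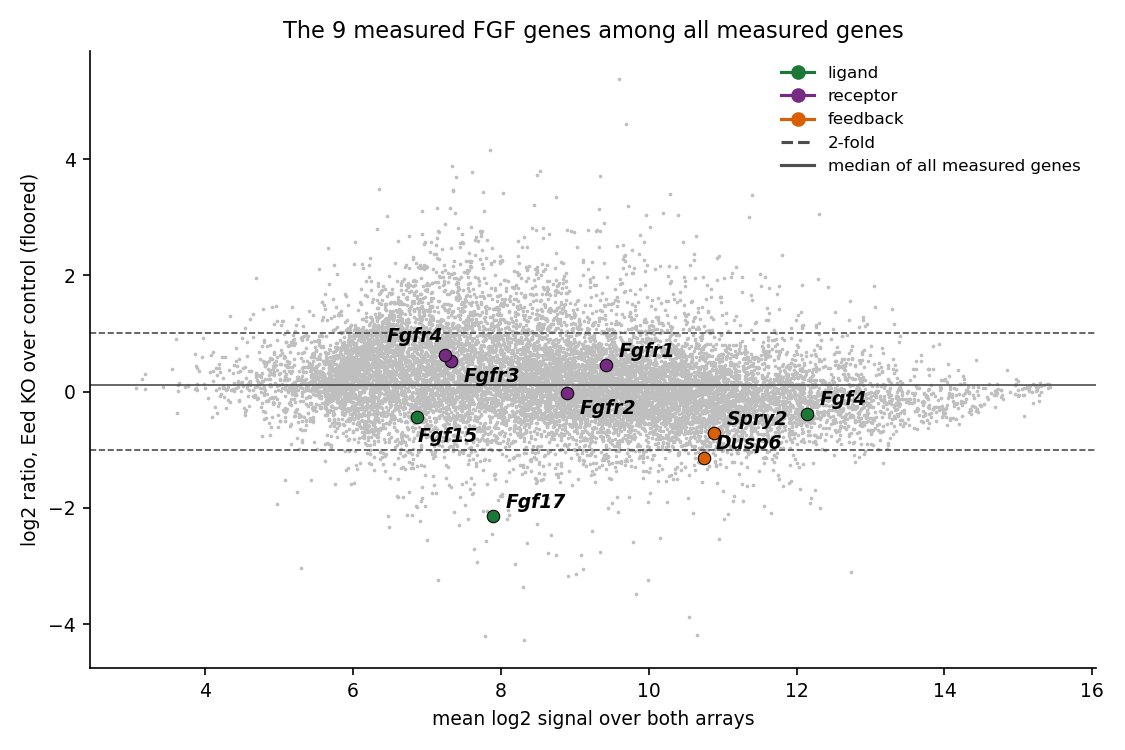
Log2 ratio of Eed KO over control against mean log2 signal for all 13794 measured genes (grey) and the 9 measured FGF genes (coloured by role). Dashed lines mark 2-fold and the solid line the median of all genes at 0.12. Fgf17 at -2.14 and Dusp6 at -1.14 lie beyond 2-fold, and the receptors lie between -0.03 and 0.63.

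The feedback genes were bright in control cells and lower in Eed KO cells. Dusp6, a cytoplasmic phosphatase that removes the activating phosphates from ERK, read 2537 in control cells and 1154 in Eed KO cells with its single probe set (1415834_at). The log2 ratio was -1.14, and 2.22% of all measured genes had one as low. Spry2, a Sprouty protein that blocks signalling between the receptor and RAS, read 2413 and 1479 with its bright probe set (1436584_at), a log2 ratio of -0.71. The probe-set SD is 0.23 between signals of 512 and 2048, so both differences exceed it by over 3 times. That SD leaves out the spread between arrays and between cultures. The other Spry2 probe set was under the floor in the control at 36.3 and read 72.1 in the Eed KO, just above it. As it passed the floor in the Eed KO only, its direction was fixed and it does not check the bright probe set. The mean over both log2 ratios was -0.24. Dusp6 had no other probe set.

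The sequences upstream of Dusp6, Spry2 and Fgf4 are shown because these 3 genes respond to or feed ERK signalling, were bright, and read lower together. Each is the 250 bases before the transcript start, 5′ to 3′ on the gene's strand, from RefSeq on GRCm38.p6. Capitals mark CGGAA or its reverse complement TTCCG, a string that contains the shorter core bound by ETS factors. These factors carry ERK signals to promoters. Matches to the shorter core alone were not marked or counted. The windows are chr10:99262981-99263230 on the + strand for Dusp6, chr14:105896820-105897069 on the - strand for Spry2 and chr7:144861136-144861385 on the + strand for Fgf4.
Dusp6: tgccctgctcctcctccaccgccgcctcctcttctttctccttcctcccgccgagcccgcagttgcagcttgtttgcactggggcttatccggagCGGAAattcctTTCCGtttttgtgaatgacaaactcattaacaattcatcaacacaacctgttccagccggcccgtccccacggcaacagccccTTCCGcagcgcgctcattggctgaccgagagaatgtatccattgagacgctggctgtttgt
Spry2: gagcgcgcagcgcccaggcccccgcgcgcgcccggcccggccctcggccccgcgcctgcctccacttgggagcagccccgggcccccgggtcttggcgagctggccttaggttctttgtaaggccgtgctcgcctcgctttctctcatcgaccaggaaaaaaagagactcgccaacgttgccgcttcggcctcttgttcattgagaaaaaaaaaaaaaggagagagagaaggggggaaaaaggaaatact
Fgf4: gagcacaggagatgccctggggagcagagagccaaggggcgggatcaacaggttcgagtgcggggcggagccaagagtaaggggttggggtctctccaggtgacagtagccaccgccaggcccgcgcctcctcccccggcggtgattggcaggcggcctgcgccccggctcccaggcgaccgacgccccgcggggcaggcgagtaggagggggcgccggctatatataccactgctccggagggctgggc

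The Dusp6 window held 3 matches to the motif and the Spry2 and Fgf4 windows held 0. Among the receptors, Fgfr4, which read higher, held 1, and Fgfr2 and both Fgfr3 windows held 0. Of all 32851 such windows, 25.2% held at least 1 match and 7.43% at least 2, both strands counted. The windows of Dusp6, Spry2 and Fgf4 were rich in CpG dinucleotides, with 16, 23 and 21, against a median of 6 over all windows. As many CpGs as in the Dusp6 window were found in 25.4% of windows, and as many as in the Spry2 window in 13.3%. The marked motif itself contains a CpG, and its share among windows of like CpG content was not computed. PRC2 occupies some CpG-rich promoters in ES cells, and whether it occupies these was not measured. The receptor genes with a window were Fgfr2, with 2 CpGs, Fgfr4, with 15, and Fgfr3, whose 2 start sites had 19 and 24. In all, 6 of the 10 genes had a window in that table, and Fgf8, Fgf15, Fgf17 and Fgfr1 were not looked up elsewhere. A match describes letters only, and no binding was measured here.

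The remaining genes of the pathway were taken from 5 lists by function, and they show where the 10 genes stand. Other genes listed as inhibitors of the pathway were mixed: of 21 that were measured, 2 were higher and 2 lower by at least 2-fold. Among all measured genes the shares were 10.8% and 3.27%. The median log2 ratio of the 21 was 0.23. Spred1, a membrane-bound inhibitor of RAS activation, read 2053 in control cells and 750.1 in the Eed KO (2.74-fold lower), and all 6 of its other measured probe sets were lower too, by log2 ratios of -1.46 to -0.71. Sulf1, an enzyme that trims heparan sulfate at the cell surface, read 561.7 and 238.0, but averaging its probe sets gave a log2 ratio of -0.86. The 2 higher ones, the phosphatase gene Dusp10 (138.6 and 306.9) and the RAS inhibitor Nf1 (87.7 and 195.6), were under 2-fold in 7 of 11 alternatives each. Dusp10 acts mainly on the kinases p38 and JNK rather than on ERK.

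The Sprouty and Spred genes of this group are named here after their values were seen, and Spred1 was the 1 among them beyond 2-fold. Spry1 read 736.3 and 414.4, Spry4 read 1320 and 952.6, and Spry3 was under the floor on both arrays. With Spry2, all 3 measured Sprouty genes had a ratio below 1, as had 41.1% of all measured genes. Their direction held under all 11 alternatives, but the changes of floor, the pseudocount and the median and spike scalings could not turn it. Spred2 read 2293 and 1928, and Spred3 was barely measured at 49.8 and 73.4. Among the phosphatases, Dusp1, a nuclear enzyme induced by stress and growth factors, read 4510 and 2619. Dusp9, a cytoplasmic ERK phosphatase that is abundant in ES cells, read 1983 and 2279, a difference whose sign turned when array medians were set equal. With Dusp6, 9 dual-specificity phosphatase genes were measured, and not all of them act mainly on ERK. Of these, 7 had a ratio above 1, against 58.9% of all measured genes, and 2, Dusp6 and Dusp1, had one below it. The median log2 ratio of the 9 was 0.32.

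The cascade between receptor and ERK differed little. Of 15 measured adaptors and kinases, 0 were 2-fold higher or lower, against 10.8% and 3.27% of all measured genes. Their median log2 ratio was -0.08. Gab1, a docking protein, read 8382 and 6428, the kinase gene Map2k1 read 3502 and 3195, Nras read 2013 and 1861, and the phosphatase gene Ptpn11 read 1684 and 1906. The sign of Ptpn11 turned with 2 scalings. A further 7 genes on this list were not analysed here.

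Genes listed as induced by ERK went both ways. The list also holds Elk1, Elk3 and Elk4, ETS factor genes named after their values were seen. Their proteins are phosphorylated by ERK, and their log2 ratios were 0.00, 0.10 and 0.63. Of the 24 in range, 6 were higher and 2 lower by at least 2-fold, against 10.8% and 3.27% of all measured genes. The median log2 ratio of the 24 was 0.62. The lower ones were Myc (1204 and 580.5), a growth regulator, and the immediate early gene Ier2 (4441 and 2160), each within 0.05 of 2-fold on the log2 scale. Myc was under 2-fold with a pseudocount, and Ier2 with quantile normalization and with the lowess trend removed. Etv5, an ETS factor and a close follower of FGF signalling, read 8757 in control cells and 5597 in Eed KO cells, and its 2 other probe sets had log2 ratios of -0.83 and -0.69. Its relative Etv4, named after its values were seen, read 985.9 and 562.0. The 5 measured genes of the Fos and Jun families, by contrast, all had a ratio above 1, as had 58.9% of all measured genes. Their median log2 ratio was 0.75.

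The higher ERK-induced genes were Emp1 (389.5 and 2768, 7.11-fold), Ccn1 (1703 and 5850, 3.44-fold), Ier5 (2.63-fold), Phlda1 (893.9 and 2282, 2.55-fold), Jun (377.7 and 899.1, 2.38-fold) and Maff (2.30-fold). Emp1 encodes a membrane protein of epithelia, and Ccn1 a matrix protein of fibroblasts and endothelium. The other Emp1 probe set had a log2 ratio of 0.94. Maff was under 2-fold in 5 alternatives and Jun when array medians were set equal. The genes Ier3 (1885 and 2853) and Plaur (1019 and 1702) were within 2-fold. The part of the fibroblast markers, whose median log2 ratio was 1.49, in these differences was not tested.

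The ligands outside the set were dim. Of 11 in range, 3 were higher and 0 lower by at least 2-fold, against 10.8% and 3.27% of all measured genes, but for 7 of them a single array exceeded the floor, which fixed their direction. Fgf7, a ligand made by mesenchymal cells for epithelia, read 229.7 in control cells and 808.8 in the Eed KO (3.52-fold), and its other probe set had a log2 ratio of 1.72. Fgf13 is counted among these, but it is an intracellular member of the family rather than a secreted ligand. It read 169.2 and 403.7, but averaging its probe sets gave a log2 ratio of 0.71. Fgf1 was under the floor in the control at 43.0 and read 126.7, at least 2.07-fold higher, and under 2-fold in 6 alternatives. Fgf9 (65.8 and 110.8) and Fgf2 (66.1 and 99.6) were close to the floor in the control, as was Fgf22 in the Eed KO at 82.2. Fgf5, the ligand of the primed epiblast, named after its values were seen, stayed below the floor at 10.6 and 9.9. In these bulk samples, more cells of a type and more RNA per cell cannot be told apart, and the fibroblast markers were higher here as well.

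Co-receptors and heparan sulfate genes had a median log2 ratio of 0.33 over 25 measured genes, of which 5 were at least 2-fold higher and 1 lower. Among all measured genes, 10.8% were at least 2-fold higher and 3.27% lower. Sdc4, a syndecan that carries heparan sulfate, read 717.4 and 3434 (4.79-fold), but its other probe set had a log2 ratio of -0.52 and the mean over both was 0.87. Flrt2, a membrane protein that binds FGF receptors, read 267.0 and 883.9 (3.31-fold), and its 2 other measured probe sets had log2 ratios of 1.96 and 2.25. Sdc3 (2.42-fold), Gpc6 (2.61-fold) and Gpc3 (2.11-fold) were under 2-fold in 2, 3 and 5 alternatives. Fgfbp1, a carrier that releases FGFs from the matrix, was the lower one, at 636.9 and 224.2 (2.84-fold), and stayed beyond 2-fold in all 11 alternatives. The enzyme genes Hs2st1 (1496 and 1876) and Ext1 (1438 and 1363), which build heparan sulfate, and the proteoglycan genes Agrn (1758 and 1769) and Sdc1 (975.7 and 975.4) were within 2-fold, and the signs of Agrn and Sdc1 turned in 4 alternatives and 1.

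**Figure D3:**
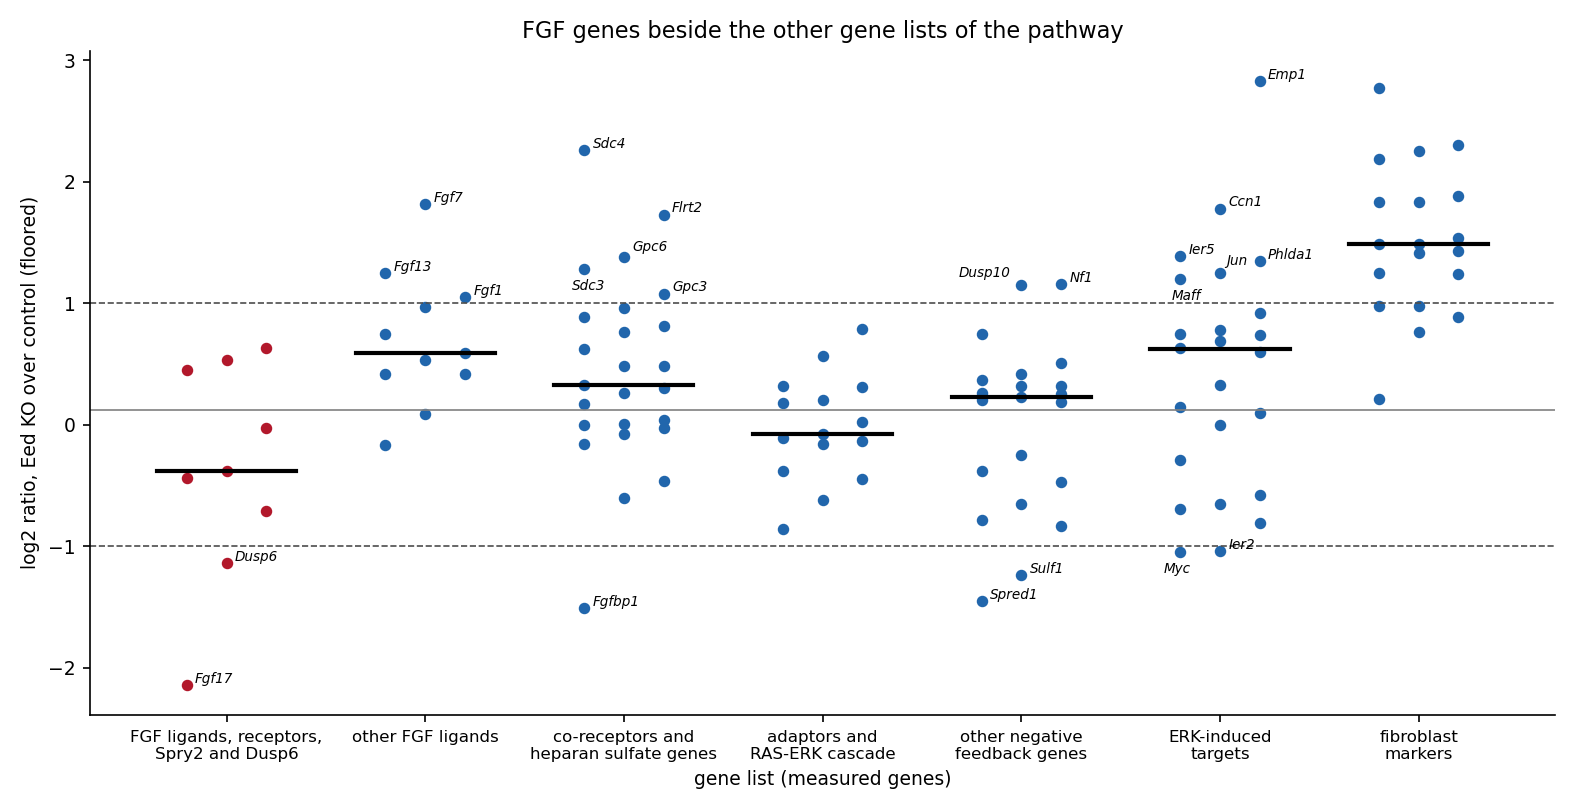
Log2 ratio of Eed KO over control for each measured gene of the FGF set (red), of the 5 further pathway lists and of the fibroblast markers (blue). Black bars are list medians, dashed lines 2-fold and the grey line the median of all measured genes. Genes beyond 2-fold are named, except fibroblast markers. The FGF set has its median at -0.38, the other ligands at 0.59 and the fibroblast markers at 1.49.

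The direction of each of the 9 genes held under all alternatives of scaling, floor and probe set choice in which the gene was measured, 10 for Fgf15 and 11 for the others. Changes of floor and the pseudocount could not turn a direction, and the median and spike scalings could only lower a ratio. For the 6 genes with a ratio below 1, none of these could therefore turn it. Fgf15 and Dusp6 have 1 probe set each, so probe set choice could not turn theirs either. Fgf17 ranged from -2.45 to -1.57 and Dusp6 from -1.44 to -1.09 on the log2 scale, so both stayed beyond 2-fold. Spry2 ranged from -1.01, when array medians were set equal, to -0.24. Fgfr2 ranged from -0.91, without shared probe sets, to -0.03, and Fgfr4 from 0.04 to 0.63.

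**Figure D4:**
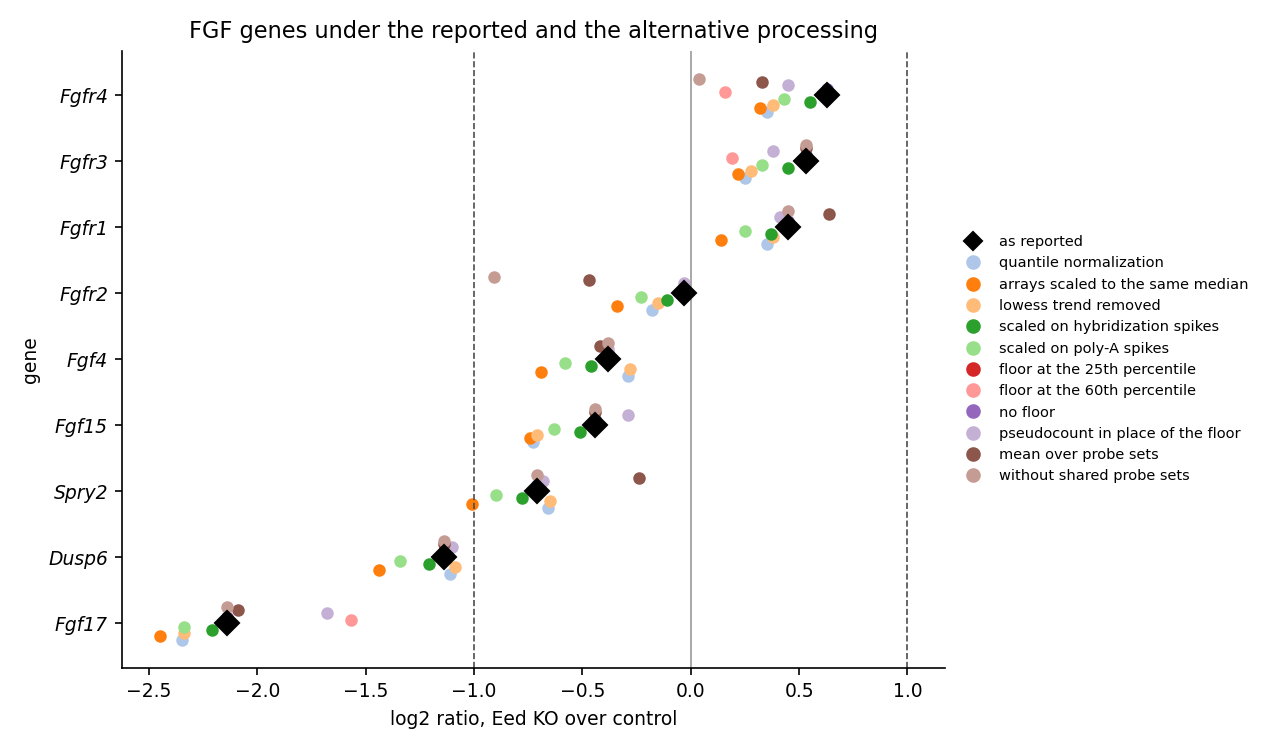
Log2 ratio of Eed KO over control for the 9 measured FGF genes as reported (black diamonds) and under each alternative (coloured points, some hidden behind the diamonds where they coincide). Dashed lines mark 2-fold. Fgf17 and Dusp6 lie left of -1 under every alternative drawn, and Fgfr1, Fgfr3 and Fgfr4 stay right of 0.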

How the data were processed

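RNA of 1 control and 1 Eed KO sample of mouse ES cells was hybridized to 1 array each. The authors deposited probe set intensities on a linear scale, computed with MAS5, per the submitters' processing notes, with no version there. Without the bottom and top 2% of the 45101 probe sets both arrays had a mean of 500.00, so they were scaled before deposit. No detection call or standard error was used here.

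From the deposited intensities, log2 ratios were computed with Python 3.11.15, numpy 2.4.6 and pandas 2.3.3. Gene symbols came from the annotation of the platform. The probe set of a gene with the greatest mean log2 signal stood for it, values below 61.3 (the 40th percentile) were raised to that floor, and a 2-fold difference was called. The code was checked on simulated data. The number of arrays limits the precision. The genes and lists were chosen with earlier results of these data known. Named were the 10 genes with all their probe sets and, in each pathway list, genes past 2-fold and up to 4 of the brightest others. Fgf3, Fgf5, Spry1, Spry3, Spry4, Spred3, Etv4, Elk1, Elk3, Elk4 and the marker genes were named outside this rule, after their values were seen. Cyr61 was matched as Ccn1. Alternatives were quantile, median, lowess (span 0.3) and spike scaling (18 hybridization and 24 poly-A probe sets), floors at the 25th and 60th percentile or none, a pseudocount equal to the floor, averaging a gene's probe sets, dropping the shared (_x_at, _s_at) ones, and calling at 1.5- and 3-fold.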

Additional observations from a re-analysis of the deposited data

How the results depend on the processing

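Of the FGF genes, 2 were at least 2-fold lower and 0 higher under each scaling, floor and probe set choice, with these exceptions. When array medians were set equal Spry2 was added, giving 3 lower. With no floor 1 of 10 was higher, against 19.3% of all genes, and it was Fgf8 at signals of 4.1 and 11.9. Calls at 1.5-fold gave 3 lower and 1 higher (Fgfr4), and calls at 3-fold left 1 lower (Fgf17). Over the 5 further pathway lists together, 16 of 96 measured genes were higher and 5 lower at 2-fold, against 10.8% and 3.27% of all measured genes. The share of all measured genes under each setting follows in brackets. The count of higher ones was 8 when array medians were set equal (6.35%), 10 with a pseudocount (7.87%), 33 at 1.5-fold (23.3%) and 5 at 3-fold (3.53%). The count of lower ones was 9 when array medians were set equal (7.53%), 8 with scaling on the poly-A spikes (5.57%), 14 at 1.5-fold (10.2%) and 0 at 3-fold (0.739%). Both scalings lower the ratio of every gene above the floor by their construction. With the floor at the 25th percentile or none, 6 other FGF ligands were higher, and as the mean over probe sets 1 was. No paired analysis was possible because each group has 1 array. Low signal limits Fgf8, Fgf15, Fgfr3 and Fgfr4, whose readings lie within a few fold of the floor or under it.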
